A study of Rattus norvegicus with 24 samples.

Results

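The transcripts described here are the noncoding ones of trained rat muscle: every row of the deposited transcript table whose gene biotype is not protein_coding and whose mean over the 24 samples was at least 1. They were thus selected on their mean level over trained and contralateral muscles together. The rule kept 414 transcripts of 389 genes, out of 1029 noncoding rows and 20027 rows in all, and left 615 noncoding rows below that mean. A biotype is the class that the Ensembl annotation gives a gene. Mean levels are given below only as a description.

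Samples came from tibialis anterior, the muscle that lifts the foot, of 12 adult male Wistar rats. An implanted pulse generator trained the left muscle once a day for 2, 10, 20 or 30 days, with 3 rats at each time point, in a protocol called SpillOver, in which the opposing calf muscles were recruited enough to load each contraction. The right muscle of the same rat was not stimulated and served as the contralateral control, so there were 12 trained and 12 contralateral muscles. All rats carried the implant, muscles were taken 1 h after the last bout, and muscles of sham-operated rats were not analysed here. Of 8 listed markers of muscle fibres 7 were in the table (Atp2a1 had no row), with Acta1 the most abundant, and each of the 7 was above 0 in every library.

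Noncoding RNA covers several kinds of transcript. A long intergenic RNA (lincRNA) is transcribed from its own promoter between protein-coding genes, an antisense RNA runs against a gene on the other strand, and the 7SL and 7SK RNAs are short structured molecules that serve protein targeting and transcription elongation. A processed pseudogene is a copy of a messenger RNA that was inserted back into the genome and usually lacks a promoter of its own. Where its sequence is near-identical to that of its parent gene, reads of the parent can be assigned to the copy. In skeletal muscle, long noncoding RNAs are known for parts in myoblast differentiation and in fibre type.

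Most of the members carried a pseudogene label. The table assigned 166 members to processed_pseudogene and 124 to pseudogene, and with 4 unprocessed and 4 transcribed processed pseudogenes these classes held 298 of the 414. There were 60 lincRNAs, 45 rows called processed_transcript (a transcript without an open reading frame in the annotation), 4 antisense RNAs, 4 misc_RNAs, the 2 ribosomal RNAs of the mitochondrion (Mt_rRNA) and 1 row called TEC, a locus still to be tested by experiment. The 7 rRNA, 5 sense_intronic, 1 ribozyme and 1 scaRNA rows had no member. Just inside the limit were Rfwd3-201, AABR07064711.1-201 and AC095825.1-201, with means of 1.00, 1.02 and 1.03, and just outside it AABR07064873.1-207, AABR07006894.1-201 and AABR07029970.1-201, with 0.996, 0.991 and 0.983.

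Labels of the older annotation did not always hold in a newer one. In the RefSeq genes of GRCr8, 79 members could be found by name or number, and 48 of these were protein-coding genes there, among them all 24 processed_transcripts that were found. A further 54 members were placed by having the same neighbours on both sides and a length within 10%, of which 38 were pseudogenes, 11 protein-coding and 5 lncRNAs. The other 281 could not be placed, and 315 of the 414 had only a clone name. Noncoding therefore describes the deposited label in what follows.

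Values were read as TPM, a unit scaled by transcript length to an equal total per library, because every library adds up to the same total. The scaling by length itself was not tested, so levels of different transcripts are not compared for size. Values were divided here by a median-of-ratios factor per library ("rescaled TPM"). The values keep no sequencing depth, so the precision that depth gives is unknown. Of the members, 395 were above 0 in every library, 213 had a mean under 5, 163 of 5 to 50 and 38 of at least 50. Log2 fold changes are differences of log2(rescaled TPM + 1) with their standard error (SE), and understate the change of low transcripts. The moderated test of limma was run on all 11677 transcripts of any biotype with a mean of at least 1, with Benjamini-Hochberg adjustment and a threshold of 0.05 on the adjusted p. Each trained group of 3 was compared with the 12 contralateral muscles, and the 4 comparisons share those controls. The mean change was also tested within animals, over the 12 pairs of muscles.

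Noncoding transcripts were called in both directions at every time point. After 2 days 83 of the 414 members (20.0%) were called, 43 higher and 40 lower, against 25.3% of all transcripts tested (13.2% higher and 12.1% lower). After 10 days 58 members (14%) were called, 28 higher and 30 lower, against 24.5% of all (12.7% and 11.8%). After 20 days the count was 37 (8.94%), 18 higher and 19 lower, against 18.1% of all (9.49% and 8.62%), and after 30 days 42 (10.1%), 25 higher and 17 lower, against 17.9% (9.28% and 8.62%). In words, the share of members called lay under the share of all transcripts at every time point, and rises and falls were near balance until 30 days. Over the 12 pairs 99 members (23.9%) were called, 45 higher and 54 lower, against 37.7% of all transcripts (17.7% higher and 19.9% lower) and 38.2% of the 11263 protein-coding ones.

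These counts moved with the controls, the scaling and single libraries. With the animal as a block, each trained muscle being compared with its own contralateral muscle, 44, 40, 22 and 19 members were called after 2, 10, 20 and 30 days, against 17.5%, 15.8%, 13.7% and 9.30% of all transcripts. On the values as deposited the split was 56 higher and 22 lower after 2 days (22.6% of all transcripts called), 37 and 15 after 10 days (20.8%), and 9 and 44 after 30 days (26.1%), where the median change of all transcripts lay at -0.19 in place of -0.02. Single trained muscles were left out in separate fits, and a replicate number stands for a different rat at each time point. Without trained replicate 2 the count fell to 30 after 2 days (11% of all transcripts), 22 after 20 days (13.1%) and 15 after 30 days (11%), and without replicate 3 to 49 after 2 days (16.5%) and 20 after 30 days (11.2%). After 10 days it fell to 34 without replicate 1 (16.1% of all) and 35 without replicate 2 (18%). The share of all transcripts called thus fell along with the members' counts.

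**Figure D1:**
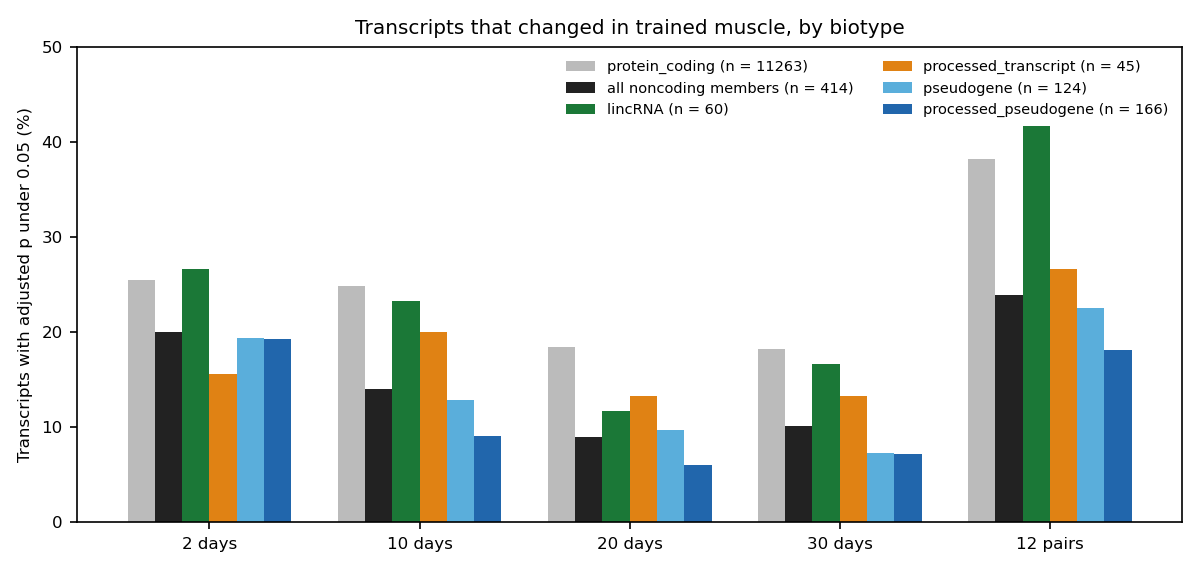
Share of transcripts called by limma (adjusted p under 0.05, y axis, percent of the transcripts of a set) for protein-coding transcripts, all noncoding members and the 4 largest biotypes, at each time point against 12 contralateral muscles and over 12 pairs. LincRNAs reached 41.7% over the pairs, above protein-coding transcripts at 38.2%, while processed pseudogenes stood at 18.1%.

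Of the 60 lincRNAs, 16 (26.7%), 14 (23.3%), 7 (11.7%) and 10 (16.7%) were called after 2, 10, 20 and 30 days and 25 (41.7%) over the pairs, against 25.3%, 24.5%, 18.1%, 17.9% and 37.7% of all transcripts, with 16 of these 25 lower in the trained muscle. Of the 298 members in a pseudogene class, 58 (19.5%), 31 (10.4%), 22 (7.38%) and 22 (7.38%) were called, and over the pairs 58 (19.5%), with 29 in each direction. The 45 processed_transcripts gave 7, 9, 6 and 6 calls and 12 (26.7%) over the pairs, 7 of them higher. No test was made between the biotypes. In the plot of called shares by biotype, the 2 largest pseudogene classes lie below the protein-coding transcripts in each comparison shown.

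Shares over the pairs were also taken within ranges of level, without a test of the differences. Among transcripts with a mean of 1 to 5, 22.1% of 213 members and 33.4% of 5297 protein-coding transcripts were called. At 5 to 50 the shares were 25.2% and 42.1%, and at 50 or more 28.9% of 38 members and 44.2% of 920. LincRNAs stood at 40.5% of 42 in the lowest of these ranges and 43.8% of 16 in the middle one. Members whose 3 trained muscles all lay outside the range of the 12 contralateral muscles numbered 40 (9.66%) after 2 days, 29 (7%) after 10, 18 (4.35%) after 20 and 17 (4.11%) after 30 days, against 13.3%, 16.2%, 11.6% and 12.1% of all transcripts. Of the members, 10 would have missed the mean of 1 on the contralateral muscles alone, and 5 of these were called over the pairs. Another 10 would have missed it on the trained muscles alone.

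Together the members held little of the RNA measured. Their share of all values lay between 2.11% and 2.44% in the contralateral muscles, with a median of 2.21%, and between 2.00% and 2.48% in the trained ones. In these values processed pseudogenes (median 0.784% in the contralateral muscles), pseudogenes (0.720%) and the mitochondrial rRNAs (0.404%) held most of it, followed by lincRNAs (0.228%) and processed_transcripts (0.0641%). The pseudogene share was 0.754% to 0.833% after 2 days and 0.576% to 0.613% after 30 days, against 0.602% to 0.756% in the contralateral muscles. With mitochondrial RNA, rRNA and transcripts under 200 bases taken out of the total, the pseudogene share was 1.03% to 1.04% after 30 days, inside the contralateral range of 1.01% to 1.08%, and 1.06% to 1.12% after 2 days. These 3 kinds of RNA were taken out together, so their separate parts were not tested, and no test was made on the shares.

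The largest rise over the 12 pairs, among all members, belonged to AABR07068316.1 (processed_transcript, chr9:97926787-98004546 of Rnor_6.0, minus strand). In the 12 contralateral muscles its level ran from 3.48 to 7.27 rescaled TPM with a median of 5.95. The trained muscles held 14.1, 24.7 and 20.8 after 2 days, 36.5, 22.6 and 22.5 after 10 days, 18.2, 20.7 and 20.6 after 20 days and 16, 14 and 15.1 after 30 days. All 12 trained muscles lay above all 12 contralateral ones, with the peak at 10 days. Its log2 fold change was 1.63 ± 0.16 (SE) after 2 days (adjusted p = 1.4e-07), 2.06 after 10 days (3.35e-09), 1.66 after 20 days (1.51e-07) and 1.28 after 30 days (8.24e-06), and 1.66 ± 0.10 over the pairs (2.7e-07, higher in 12 of 12).

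The place of AABR07068316.1 is that of a collagen gene. It lies between Cops8 and Mlph, and the gene that RefSeq has between these neighbours at a like length is Col6a3, which encodes a chain of type VI collagen, the microfibrillar collagen around muscle fibres. The table had no row named Col6a3. Its partner chains were protein-coding rows and rose as well: the log2 fold change of Col6a1 was 1.37, 1.90, 1.48 and 1.02 at the 4 time points and 1.44 ± 0.11 over the pairs (adjusted p = 1.09e-06), and that of Col6a2 was 1.39, 1.86, 1.49 and 0.98, and 1.43 ± 0.10 over the pairs (8.12e-07). Because the row may be a coding transcript under a noncoding label, the RefSeq promoter of Col6a3 is shown, from 250 bases before to 50 after its start (GRCr8 chr9:98886909-98887208, minus strand); none of the motifs searched below has its letters in it, and no base is in capitals.
Col6a3: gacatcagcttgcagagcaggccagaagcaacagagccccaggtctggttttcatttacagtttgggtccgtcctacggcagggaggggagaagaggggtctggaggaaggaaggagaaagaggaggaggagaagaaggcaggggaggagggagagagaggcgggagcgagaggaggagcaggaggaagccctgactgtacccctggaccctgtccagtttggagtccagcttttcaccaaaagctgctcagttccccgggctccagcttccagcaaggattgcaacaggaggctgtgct

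Markers of connective tissue cells moved with this transcript. The summed level of 5 fibroblast markers (Col3a1 the most abundant, with Col1a1, Dcn, Lum and Pdgfra, none at 0 in any library) was 74.6 to 253 in the contralateral muscles (median 173). It was 301, 495 and 410 after 2 days, 982, 594 and 518 after 10 days, 598, 562 and 614 after 20 days and 355, 405 and 416 after 30 days, and 3, 4, 5 and 5 of the 5 were called higher at these times and all 5 over the pairs. Dcn alone had a median of 61.2 after 2 days against 70.3 in the contralateral muscles. The 7 macrophage and leukocyte markers, led by C1qa, summed to 6.68 to 16.5 in the contralateral muscles (median 11.6) and, from 2 to 30 days in order, to 19.9, 44.5, 30.6, 50.7, 41.3, 21.2, 29.5, 29.8, 36.5, 26.6, 37.7 and 32.7 in the trained ones. Of these 7, Cd68 was at 0 in 1 library, and all 5 that could be tested rose over the pairs. In whole muscle, a change in the number of cells of a type and a change in RNA per cell cannot be told apart, and the part of these markers in the noncoding changes was not tested. Of the 7 fibre markers 1 was called higher and 2 lower over the pairs. Pvalb, a calcium buffer of fast fibres, went from a median of 2178 in the contralateral muscles to 205 after 20 days. The medians of Myh4-202 and Acta1 went the other way, from 4890 to 9895 and from 25434 to 34570. Myh4-202 is a single transcript row of a myosin gene, so its rise does not show a rise of the whole gene. The paper reports the opposite for this myosin gene, a sharp decline of its expression with longer training. The difference between that row and the gene was not tested. Of the other marker lists, 2 of 3 smooth muscle markers and 1 of 2 tested Schwann cell markers were called higher over the pairs (1 Schwann cell marker was lower after 30 days), and none of the tested blood (3) or adipocyte (1) markers; Myf5 and Pax7, of satellite cells, were below the mean of 1, and Pax7 was at 0 in 2 libraries and Sox10, of Schwann cells, in 3.

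Other processed_transcripts came from genes that RefSeq lists as protein-coding. Cd93-202, of a receptor of endothelial cells (chr3:142778770-142783774, minus strand), lay between 2.65 and 9.19 with a median of 5.49 in the contralateral muscles. Trained muscles held 4.69, 3.16 and 3.58 after 2 days, 10.4, 5.94 and 18.9 after 10 days, 11.9, 11.6 and 11.2 after 20 days and 11.5, 8.36 and 13.8 after 30 days. The 2-day muscles lay inside the contralateral range, as did their own contralateral muscles with 3.90, 2.65 and 4.75, and all 3 muscles were clear of that range only after 20 days. After 2 days the log2 fold change was -0.40 (adjusted p = 0.264), and 0.03 with the animal as a block (0.953). The log2 fold change was 0.89 after 10 days (adjusted p = 0.0113; 0.193 without trained replicate 3), 1.00 ± 0.25 after 20 days (0.00652; 0.0699 against time-matched contralateral muscles) and 0.94 after 30 days (0.0111; 0.0992 with the animal as a block, 0.0510 without trained replicate 1 and 0.0946 without replicate 3), and 0.61 ± 0.11 over the pairs (0.00129, higher in 11 of 12). Among 4 endothelial markers with a row (Pecam1 had none), led by Cdh5, 1 was called higher over the pairs, and their sum was 27.7 to 42.8 in the contralateral and 21.3 to 56.6 in the trained muscles.

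Snx3-202, of a sorting nexin of endosomes, had the highest mean of the processed_transcripts, 70.0. It fell after 10 days to 50.4, 42.7 and 46.8, from 54.8 to 114 (median 72.3) in the contralateral muscles, with all 3 below the control range (log2 fold change -0.67 ± 0.19, adjusted p = 0.0117; 0.0697 without trained replicate 2 and 0.0604 against time-matched contralateral muscles). After the other times its change was -0.30, -0.16 and 0.19 and did not pass the test. Chosen after their values were seen, Arid5b-201, of a DNA-binding protein, was at 6.07, 4.73 and 3.88 after 10 days against 0.707 to 3.57 in the contralateral muscles (1.11, adjusted p = 0.000454), and Bves-201, of a muscle membrane protein, was at 23.6, 27.3 and 38.4 after 2 days against 10.8 to 22.9 (0.93, adjusted p = 0.000381). Both were above every contralateral muscle at those times.

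Among pseudogenes the largest rises over the pairs belonged to AABR07018244.2 and LOC680491. LOC680491 (processed pseudogene, chr13:6343913-6347515, minus strand) is Hsp90aa1-ps16 in RefSeq, a copy of the inducible form of the chaperone Hsp90. The contralateral muscles held 9.86 to 22.9 rescaled TPM with a median of 14.4. After 2, 10, 20 and 30 days the trained muscles held 44.2, 66.8 and 30.2, then 51.1, 32.5 and 48.2, then 29.2, 31.9 and 23.7, and then 25.3, 36.2 and 26.2. Each trained muscle was above every contralateral one, and the early groups were highest. It rose by 1.51 ± 0.23 (adjusted p = 3.38e-05), 1.46 (4.51e-05), 0.85 (0.0101; 0.0707 without trained replicate 2) and 0.89 (0.00793; 0.0823 without trained replicate 2 and 0.0525 against time-matched contralateral muscles), and 1.18 ± 0.11 over the pairs (5.1e-06, higher in 12 of 12). Its parent Hsp90aa1 changed by 1.68, 1.55, 0.89 and 0.95, and by 1.27 ± 0.09 over the pairs.

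AABR07018244.2 (pseudogene, chr15:48976146-48977111, plus strand) lies within Elp3 on the opposite strand, in an interval where RefSeq has several genes, among them Anxa2-ps1, a copy of annexin A2, to which it was not matched by length. Its contralateral level was 0.672 to 4.08 with a median of 2.61. Trained muscles held 4.85, 12.7 and 9.39 after 2 days, 10.8, 9.57 and 7.71 after 10 days, 4.81, 4.71 and 4.39 after 20 days and 3.95, 5.46 and 5.51 after 30 days. The first 9 of these lay above the contralateral range and 1 of the last 3 did not. In log2 units the changes were 1.52 ± 0.26 (adjusted p = 0.000132), 1.64 (4.79e-05), 0.77 (0.0387) and 0.85 (0.0239), and 1.20 ± 0.15 over the pairs (6.47e-05, higher in 12 of 12). With the animal as a block the calls at 20 and 30 days were lost (adjusted p = 0.0613 and 0.0705), and without any 1 trained muscle the adjusted p at 20 days was 0.0901 to 0.123 (0.0530 without contralateral replicate 1 of 2 days). Without trained replicate 2 or 3 it was 0.113 or 0.114 at 30 days. Anxa2 changed by 2.00, 1.71, 1.11 and 1.00, and by 1.46 ± 0.13 over the pairs, whereas Elp3 fell by 0.20 over the pairs (adjusted p = 0.0162).

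**Figure D2:**
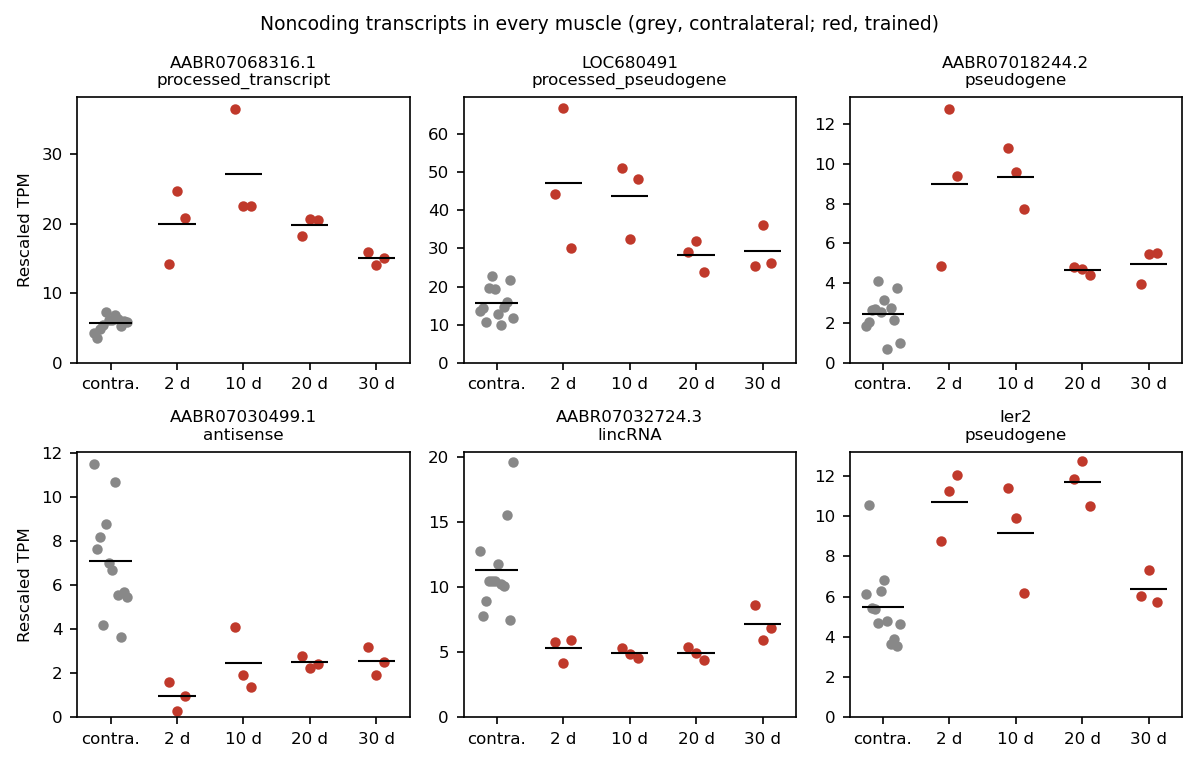
Level of 6 named transcripts in each muscle (y axis, rescaled TPM, a scale of its own per panel starting at 0) by group (x axis), with contralateral muscles in grey, trained muscles in red and a line at the group mean. All 12 trained muscles lie above the contralateral ones for AABR07068316.1 and LOC680491, while AABR07030499.1 falls to 0.270 to 1.61 after 2 days.

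Ier2, an immediate early gene that is induced within minutes of a stimulus, is labelled a pseudogene in the table (chr19:25774143-25775659, minus strand) and protein-coding in RefSeq. It lay between 3.53 and 10.5 in the contralateral muscles with a median of 5.08. Trained muscles held 8.74, 11.2 and 12 after 2 days, 11.4, 9.90 and 6.19 after 10 days, 11.9, 12.7 and 10.5 after 20 days and 6.02, 7.32 and 5.75 after 30 days. Every trained group overlapped the contralateral range, and the group mean was highest after 20 days. Its changes were 0.89 ± 0.20 after 2 days (adjusted p = 0.00239; 0.134 with the animal as a block), 0.66 after 10 days (0.0196; 0.0815 with the block, 0.171 without trained replicate 1 and 0.103 without replicate 2), 1.01 after 20 days (0.000959; 0.00764 with the block) and 0.23 after 30 days (0.489). Over the pairs it was 0.70 ± 0.11 (0.000435, higher in 11 of 12). The immediate early genes Egr1 and Fos, protein-coding rows, changed over the pairs by 4.05 ± 0.15 and 3.37 ± 0.24.

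Ier2 was also the member whose promoter held a cyclic AMP response element (CRE) when 4 motifs were searched on both strands of RefSeq promoter windows, which existed for 47 genes of members (53 windows). TGACGTCA, the CRE, was in 1 of the 53 windows (1.89%) and in 1.83% of all 33469, and it lies from -66 to -59 of the start in Ier2. The E-box CACGTG was in 3 of 53 (5.66%) against 6.42% of all, the AP-1 motif TGANTCA in 2 (3.77%) against 7.33%, and the CArG box of serum response in 0 against 1.64%. TGACGTCA does not contain the letters of the other motifs. The window of Ier2 (GRCr8 chr19:40399123-40399422, plus strand) is shown with the CRE in capitals; a match is a description, not a site shown to be bound.
Ier2: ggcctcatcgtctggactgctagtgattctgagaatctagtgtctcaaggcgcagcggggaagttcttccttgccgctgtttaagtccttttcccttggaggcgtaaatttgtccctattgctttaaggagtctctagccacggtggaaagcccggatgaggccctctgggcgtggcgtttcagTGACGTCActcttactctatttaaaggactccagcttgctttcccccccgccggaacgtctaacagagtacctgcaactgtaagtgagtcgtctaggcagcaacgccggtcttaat

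Other pseudogenes named by rule changed at some time points only. AABR07048653.1 (processed pseudogene, chr5:86869973-86870386, minus strand) was at 0.276 to 3.81 in the contralateral muscles and at 6.20, 15.4 and 4.85 after 10 days, all above that range (log2 fold change 1.96 ± 0.38, adjusted p = 0.000548). It was at 2.19, 11.1 and 4.87 after 2 days (1.43, adjusted p = 0.00848; 0.178 without trained replicate 2 and 0.130 against time-matched contralateral muscles) and back in the contralateral range with 1.27, 1.96 and 0.682 after 30 days (-0.02, adjusted p = 0.985). AABR07014550.1 (processed pseudogene, chr14:21163840-21164295, plus strand), was at 13.2 to 29.3 in the contralateral muscles with a median of 19.3. It held 16.7, 13.1 and 15.1 after 2 days, 22.2, 27.2 and 21 after 10 days, 35.8, 29.7 and 25.3 after 20 days and 37.0, 36.5 and 43.9 after 30 days, so that the groups stood in order of time. The change was -0.42 (adjusted p = 0.0692), 0.20 (0.442), 0.54 (0.0271) and 0.91 ± 0.17 (0.000516), and with the block 0.0517 and 0.0510 were reached at 20 and 30 days; without trained replicate 1 or 2 the call at 20 days was lost (0.184 and 0.0831).

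Sephs2-201 makes the selenium donor of selenoprotein synthesis, and RefSeq has it as protein-coding. It fell from 15 to 18.6 in the contralateral muscles to 12.5, 11.5 and 12.5 after 20 days (log2 fold change -0.43 ± 0.08, adjusted p = 0.00049) and by 0.33 over the pairs (0.000826, lower in 11 of 12), with calls at 10 and 30 days that were lost under the block (adjusted p = 0.0791 and 0.240), at 10 days as deposited (0.0890) and, at 30 days, without trained replicate 1 (0.0595) or 2 (0.136). Ubb-201, a polyubiquitin gene that supplies ubiquitin under stress and again protein-coding in RefSeq, had the highest mean of the pseudogene class, 536. Its level was 497 to 625 in the contralateral muscles and 495, 477 and 406 after 30 days, just below that range (-0.34, adjusted p = 0.0519; 0.00357 as deposited), and it fell by 0.26 ± 0.06 over the pairs (0.00411, lower in 11 of 12). AABR07039356.1, matched by a synonym to the protein-coding Hrasl1 in RefSeq, fell by 0.53 ± 0.11 over the pairs (0.00236, lower in 11 of 12), with calls at 10, 20 and 30 days of -0.56, -0.73 and -0.48 that the block did not keep (adjusted p = 0.0845, 0.189 and 0.259). They were also lost without trained replicate 1 at 10 days (0.177) or replicate 3 at 20 days (0.0662), and at 30 days (0.0490) without any trained replicate (0.102 to 0.170) or most single contralateral muscles. AABR07028237.1 fell after 30 days to 5.24, 4.67 and 4.13, below a contralateral range of 5.79 to 9.19 (-0.54, adjusted p = 0.0129; 0.0515 with the block, 0.0555 without trained replicate 2 and 0.0935 without replicate 3). It was also called after 10 days (-0.52, adjusted p = 0.0128; 0.101 with the block, 0.0533 without trained replicate 1 and 0.195 without replicate 3) and over the pairs (-0.38, 0.00733).

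Of the 31 members of the pseudogene classes with a mean of at least 50, 12 (38.7%) were called after 2 days, against 43.5% of protein-coding transcripts at that level, and 9 (29%) over the pairs, against 44.2%. After 10, 20 and 30 days the shares were 19.4%, 12.9% and 3.23%, against 36.1%, 25.7% and 30.9%. LOC100360791, the copy of translationally controlled tumour protein that RefSeq calls Tpt1l3, had a mean of 737 and changed by -0.13 over the pairs (adjusted p = 0.188). Rtl8a-202, the highest of the transcribed processed pseudogenes at 24.6, changed by -0.14 (0.0946), and AC109037.1, the highest of the unprocessed ones at 24.6, by 0.15 (0.0966). AC109037.1 was at 31.6, 30.1 and 37.8 after 2 days against 17.2 to 33.2 in the contralateral muscles (0.52 ± 0.14, adjusted p = 0.0109; 0.0974 without trained replicate 3). Chosen after their values were seen, RGD1563601 and RGD1562690, with means of 704 and 636, fell by 0.23 (0.00714) and 0.24 (0.00626) over the pairs, each lower in 11 of 12.

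Where RefSeq has a member as a pseudogene and names its parent, both could be followed. There were 47 such members with a tested parent, 2 of them labelled lincRNA in the deposited table. Over the pairs 9 of the copies and 16 of the parents were called, beside 37.7% of all transcripts, 6 had both called, and all 6 moved the same way. Across the 47 transcripts the log2 fold changes of copy and parent had a Pearson r of 0.727 and a Spearman rho of 0.679 over the pairs, and r was 0.544 without LOC680491. By time, r was 0.573, 0.752, 0.677 and 0.474 after 2, 10, 20 and 30 days, and 0.422, 0.530, 0.572 and 0.291 without LOC680491. These values run across transcripts of the same libraries, which are not independent replicates, and reads of a near-identical parent may be counted on the copy, so the changes of the copies are uncertain.

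**Figure D3:**
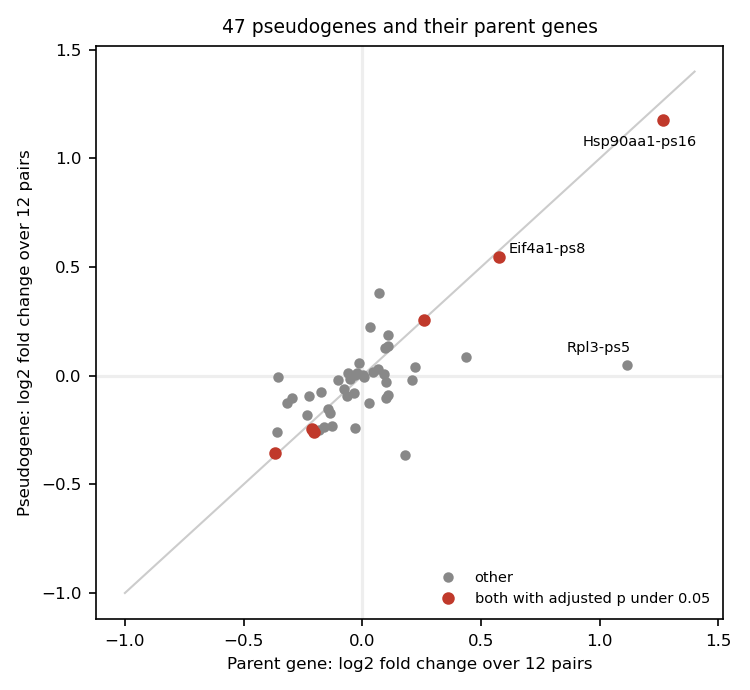
Log2 fold change over 12 pairs of 47 members that RefSeq has as pseudogenes (y axis) against that of the parent gene that RefSeq names (x axis), both on the log2(rescaled TPM + 1) scale, with a line where they are equal and the 6 pairs with both called in red. Hsp90aa1-ps16 lies near the line at 1.18 against 1.27, while Rpl3-ps5 lies at 0.05 against 1.11 for its parent.

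Some copies followed their parent closely and others did not. The following were chosen after their values were seen. LOC688672 (Eif4a1-ps8, a copy of a helicase of translation initiation) held 8.14 to 12.1 in the contralateral muscles and 15.7, 21 and 20 after 2 days, above that range, and rose by 0.55 ± 0.05 over the pairs (adjusted p = 9.29e-06) against 0.58 for Eif4a1. LOC688754 (Vdac1-ps11, of a pore of the outer mitochondrial membrane) held 278 to 352 in the contralateral muscles and 238, 169 and 194 after 2 days, below that range, with a fall of 0.24 over the pairs (0.00906) against -0.21 for Vdac1. AC094053.1 (Eif4g1-ps1, of an initiation factor scaffold) fell by 0.35 (0.000185) with -0.37 for Eif4g1. AABR07037203.1 (Rpl3-ps5, of a ribosomal protein) changed by 0.05 (0.570) while Rpl3 rose by 1.11.

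Over the 12 pairs the largest falls among members belonged to an antisense RNA and to lincRNAs. AABR07030499.1 (chr10:90746683-90750271, minus strand) overlaps the end of Adam11, which encodes a neuronal surface protein and runs on the plus strand. The contralateral muscles held 3.65 to 11.5 rescaled TPM with a median of 6.84. Trained muscles held 1.61, 0.270 and 0.967 after 2 days, 4.09, 1.94 and 1.38 after 10 days, 2.80, 2.25 and 2.44 after 20 days and 3.18, 1.94 and 2.52 after 30 days. In words, 11 of the 12 trained muscles were below every contralateral muscle, and the group mean was lowest after 2 days. Its changes were -2.05 ± 0.26 after 2 days (adjusted p = 3e-06), -1.24 after 10 days (0.000941), -1.15 after 20 days (0.00248) and -1.14 after 30 days (0.00308; -0.74 and 0.174 with the block), and -1.40 ± 0.16 over the pairs (2.97e-05, lower in 12 of 12). Adam11 had a mean of 0.498 and was not tested; its group means were 0.653 in the contralateral muscles and 0.336 after 2 days. The paper names a directional library kit. Without the strand setting of the counting, it is unknown whether reads of overlapping genes on opposite strands were told apart.

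A lincRNA farther along the chromosome also fell. AABR07030501.1 (chr10:90769555-90772638, minus strand), between Adam11 and the connexin gene Gjc1, was chosen after its values were seen. It held 2.03 to 5.31 in the contralateral muscles and 1.99, 0.0890 and 0.684 after 2 days, 1.16, 1.13 and 1.27 after 10 days, 0.325, 1.02 and 1.25 after 20 days and 0.786, 0.638 and 1.66 after 30 days. All 12 trained muscles were below all 12 contralateral ones. The change over the pairs was -1.21 ± 0.10 (adjusted p = 2.04e-06, lower in 12 of 12), and Gjc1, 8764 bases away on the same strand, changed by -0.42 (0.00978).

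Neighbours on chromosome 18 far from any protein-coding gene of the table also fell. AABR07032724.3 (lincRNA, chr18:78277468-78281567, plus strand) lay between 7.48 and 19.6 in the contralateral muscles with a median of 10.4. Trained muscles held 5.77, 4.15 and 5.95 after 2 days, 5.34, 4.90 and 4.53 after 10 days, 5.39, 4.91 and 4.44 after 20 days and 8.63, 5.95 and 6.90 after 30 days. The first 9 were below the contralateral range and 1 muscle of 30 days was back inside it. On the log2 scale it changed by -0.94 ± 0.19 (adjusted p = 0.000614), -1.01 (0.000262), -1.02 (0.000375) and -0.56 (0.0370; 0.208 without trained replicate 2, 0.126 without replicate 3, 0.0521 without contralateral replicate 1 of 2 days and 0.0527 with no filter), and -0.88 ± 0.09 over the pairs (8.97e-06, lower in 12 of 12).

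The next row on the same strand, AABR07032724.1 (TEC, chr18:78282423-78283480), moved alike. It was at 8.53 to 15.2 in the contralateral muscles with a median of 11.7, and at 7.26, 6.01 and 4.82 after 2 days, 5.96, 8.43 and 5.02 after 10 days, 10.4, 6.79 and 7.84 after 20 days and 6.13, 7.66 and 7.36 after 30 days. In 11 of 12 trained muscles it was below the contralateral range. The change was -0.87 ± 0.16 (adjusted p = 0.0003), -0.80 (0.000718), -0.47 (0.0453; 0.255 and 0.141 without trained replicates 2 and 3, and above the threshold without most single contralateral muscles) and -0.67 (0.00516; 0.0595 with the block), and -0.70 ± 0.09 over the pairs (6.6e-05, lower in 12 of 12). The 2 rows may be pieces of 1 transcript, which the table cannot show.

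Most called lincRNAs, antisense RNAs and TEC rows had no tested neighbour. Of the 65 lincRNAs, antisense RNAs and TEC rows, 7 overlapped a protein-coding transcript of the table, 26 had one within 10000 bases and 32 had none. Of the 27 called over the pairs, 8 had a tested neighbour, 6 of those neighbours were called (37.7% of all transcripts were), and 5 moved in the same direction as the noncoding row. Of the 13 called pseudogene rows with a tested neighbour, 9 neighbours were called and 6 moved in the same direction, and of 2 such processed_transcripts neither neighbour was called. AABR07002627.1 (chr1:78112559-78149053, plus strand), 71 bases from the helicase gene Dhx34, was at 16.6 to 29.1 in the contralateral muscles and fell by 0.36 ± 0.09 over the pairs (adjusted p = 0.0061, lower in 11 of 12). After 10 days it was at 13.9, 11.5 and 14.7, below that range (-0.58, adjusted p = 0.0132; 0.166 with the block and 0.101 without trained replicate 2). AABR07030527.1, the antisense RNA with the highest mean (6.45), lies in Mapt, the gene of the microtubule protein tau, and changed by -0.42 over the pairs (0.0526; 0.0488 as deposited) while Mapt changed by -0.06 (0.543).

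Also chosen after its values were seen, LOC102546683-202 (lincRNA, chr17:19054993-19059841, plus strand) was the member most nearly absent from contralateral muscles. It was listed at 0 in 9 of 12 of them, and the highest held 0.345. Trained muscles held 1.06, 1.78 and 0.913 after 2 days, 4.47, 3.36 and 2.55 after 10 days, 1.09, 1.67 and 2.69 after 20 days and 2.10, 2.56 and 1.78 after 30 days. Every trained muscle was above every contralateral one. It passed the mean of 1 only through the trained muscles, which had to make it differ, so no test is given.

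Few noncoding RNAs that are known by name were in the table. Of 42 long noncoding RNAs on a fixed list, 1 was found, Tug1, a chromatin-associated RNA. Of 29 snoRNA host genes and 22 muscle microRNAs there was none, so their absence from what follows says nothing of their level. Tug1-201 (chr14:83878295-83887584, minus strand) held 3.14 to 4.56 in the contralateral muscles with a median of 3.48, and 2.74, 2.26 and 2.46 after 2 days, below all of them. The log2 fold change was -0.40 ± 0.11 after 2 days (adjusted p = 0.0127; 0.0770 as deposited and 0.109 and 0.0549 without trained replicates 2 and 3) and -0.23 ± 0.07 over the pairs (0.0176; 0.0573 as deposited, lower in 10 of 12).

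The lincRNA with the highest mean did not pass the test at any time point. AC134224.3 (chr1:221158098-221158792, minus strand) had a mean of 1163. Its level was 462 to 2232 in the contralateral muscles with a median of 1037, and the trained muscles ran from 583 to 1840. The groups overlapped at every time point, and the change over the pairs was 0.10 ± 0.16 (adjusted p = 0.658). The lincRNAs AC134224.1 and AC134224.2 of the same clone, with means of 78.3 and 7.45 and chosen after their values were seen, fell by 0.27 (0.00772, lower in 11 of 12) and 0.30 (0.0123, lower in 10 of 12). The difference between these 3 rows was not tested.

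The mitochondrial rRNAs rose after 30 days against the pooled controls. The 16S rRNA (AY172581.24, chrM:1094-2664, plus strand) was at 1182 to 2475 rescaled TPM in the contralateral muscles with a median of 1424. Trained muscles held 1168, 1291 and 1249 after 2 days, 1066, 1100 and 1261 after 10 days, 1937, 1548 and 1594 after 20 days and 2135, 2545 and 3161 after 30 days. The log2 fold change at 30 days was 0.78 ± 0.16 (adjusted p = 0.0017), but the contralateral muscles of the same rats held 2475, 1762 and 1276, and with the animal as a block it was 0.54 (0.169). Over the pairs 4 rats were higher and 8 lower (0.07 ± 0.11, adjusted p = 0.668). The 12S rRNA (AY172581.9, chrM:68-1025) was at 867 to 1830 in the contralateral muscles and at 1391, 1988 and 2068 after 30 days (0.68, adjusted p = 0.0133; 0.43 and 0.310 with the block). Against the pooled controls, the messenger RNAs Mt-co1 and Mt-nd1 changed at 30 days by 0.79 (0.00215) and 0.56 (0.0208), and Mt-nd6 by 0.13 (0.714). Over the pairs Mt-co1 changed by 0.02 (adjusted p = 0.908), Mt-nd1 by -0.13 (0.335) and Mt-nd6 by -0.32 (0.0291). These libraries were enriched for polyadenylated RNA, so rRNA levels reflect what that step kept.

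The misc_RNA class holds 4 structured RNAs, to which the same limit of polyadenylated libraries applies. Rn7sl1 (chr6:91456908-91457207, plus strand), the 7SL RNA of the signal recognition particle, and Metazoa_SRP.22 (chr6:91680229-91680528, minus strand) had the same value in every library, and 16 members in all shared their values with another row. The contralateral muscles held 5.86 to 37.4 with a median of 15.9. Trained muscles held 3.82, 8.83 and 11.5 after 2 days, 4.48, 8.18 and 5.69 after 10 days, 9.05, 11.5 and 5.79 after 20 days and 13.5, 21.3 and 27.5 after 30 days. The groups overlapped at every time point, and the highest values after training were those of 30 days. The log2 fold change was -1.14 ± 0.36 after 10 days (adjusted p = 0.0241; 0.128 with the block, 0.143 without trained replicate 1 and 0.0799 without replicate 3) and -0.56 ± 0.18 over the pairs (0.0260, lower in 9 of 12; 0.0514 to 0.0614 without replicate 1 or 3 of 2 days, replicate 1 of 10 days or replicate 1 of 20 days). 7SK.281, of the 7SK RNA that holds back transcription elongation, changed by -0.32 over the pairs (0.245).

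**Figure D4:**
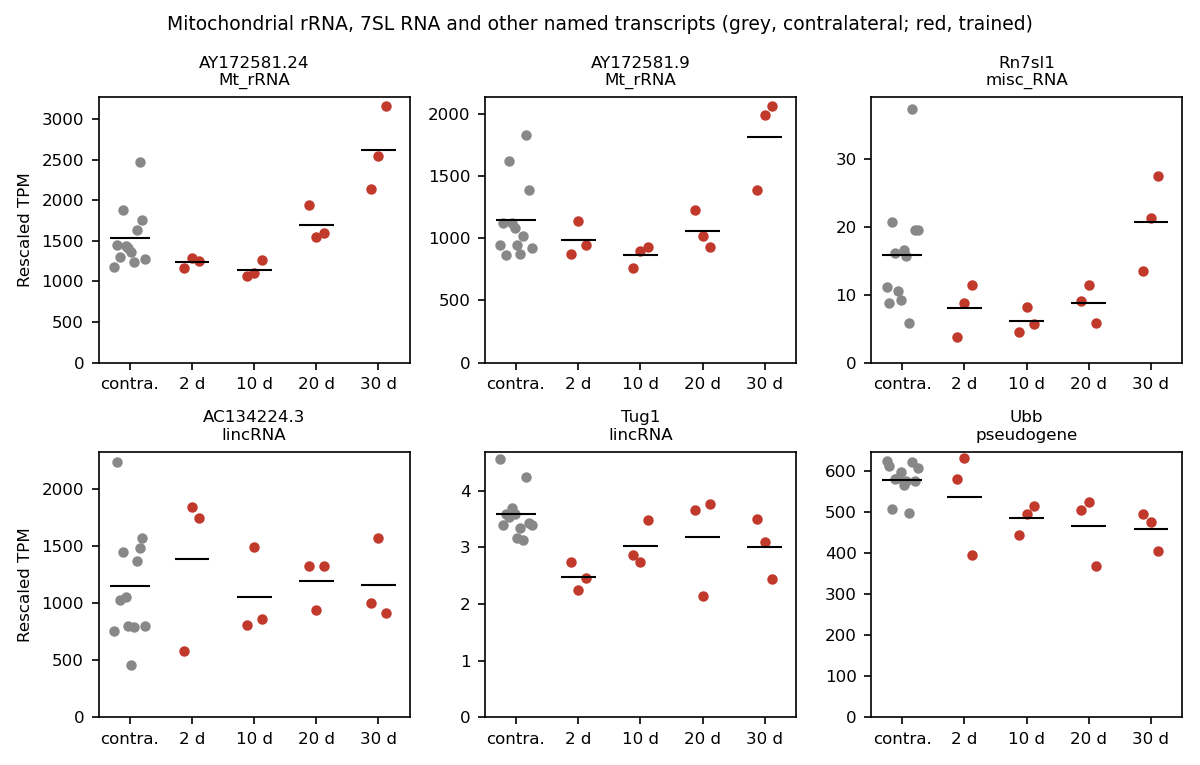
Level of the mitochondrial rRNAs, 7SL RNA, AC134224.3, Tug1 and Ubb in each muscle (y axis, rescaled TPM, a scale of its own per panel starting at 0) by group (x axis), with contralateral muscles in grey, trained muscles in red and a line at the group mean. The 16S rRNA reaches 2135 to 3161 after 30 days, where 1 contralateral muscle holds 2475, and AC134224.3 overlaps between groups throughout.

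Whether the response to training differed between its ends was tested as the difference at 30 days minus the difference at 2 days, within animals. The test called 4 members (0.966%) against 1.36% of all transcripts (0.565% higher and 0.796% lower), 3 of them higher and 1 lower, with 77 of the 414 members and 2046 of all 11677 transcripts at an unadjusted p under 0.05. RGD1565989-202 (lincRNA in the table, chr2:127844575-127916378, plus strand; Larp1bl, protein-coding, in RefSeq; overlapping Larp1b) was the 1 with a mean of at least 5. Its trained muscles held 9.24, 7.90 and 7.65 after 2 days against 6.50, 5.09 and 6.11 in their own contralateral muscles, and 3.73, 5.11 and 4.63 after 30 days against 7.36, 10.5 and 8.51. All 3 pairs were higher at 2 days and all 3 lower at 30 days, a difference of -1.26 ± 0.21 (adjusted p = 0.0245; 0.0576 to 0.0874 without single animals, except replicate 1 of 2 days).

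The other 3 calls were named after their values were seen. AABR07031489.1 (lincRNA, chr18:15553975-15558178, minus strand) was at 2.20 to 5.53 in the contralateral muscles and at 0.924, 0.124 and 0.508 after 2 days, 0.712, 0.892 and 1.71 after 10 days, 1.36, 1.29 and 1.56 after 20 days and 2.33, 1.56 and 2.16 after 30 days, so that it was lowest at 2 days and nearest to the contralateral range at 30 days. The difference was 1.42 ± 0.24 (adjusted p = 0.0245), and the change over the pairs -1.01 ± 0.08 (2.51e-06, lower in 11 of 12). AABR07050283.1 (lincRNA, 1.07 ± 0.23, adjusted p = 0.0445) was at 1.31, 0.986 and 0.943 after 2 days against 2.47, 3.25 and 1.79 in the paired muscles, and at 1.55, 2.51 and 2.54 after 30 days against 1.22, 1.78 and 1.57. AABR07024500.1 (processed pseudogene, 1.79 ± 0.34, adjusted p = 0.0316) was at 1.17, 0 and 0.968 after 2 days against 1.22, 0.462 and 1.97, and at 2.77, 1.88 and 2.93 after 30 days against 0, 0.663 and 0.408. All 4 calls rested on 3 rats at each end: without replicate 2 or 3 of 2 days or replicate 1 of 30 days no member was called (0.163%, 0.137% and 0.197% of all transcripts), without replicate 2 or 3 of 30 days 1 was (0.214% and 0.291%), and without replicate 1 of 2 days 9 were (3.75%).

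**Figure D5:**
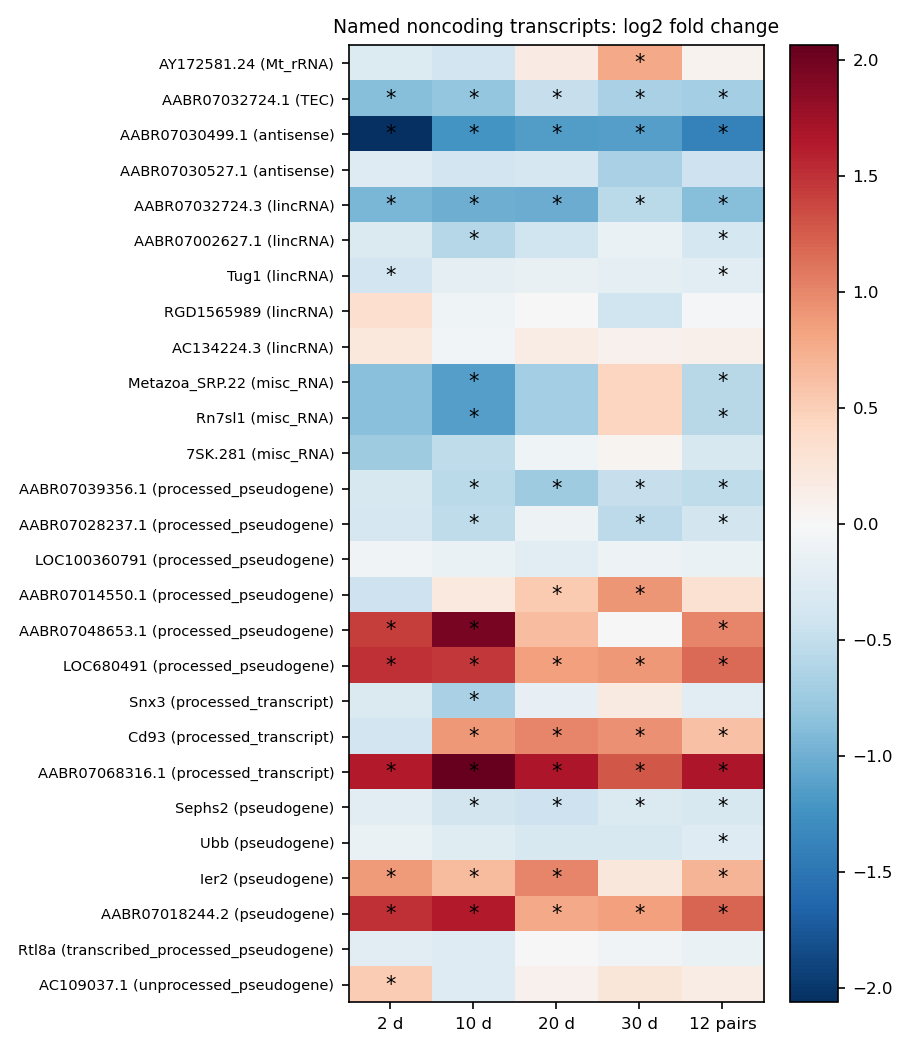
Log2 fold change (colour, on the log2(rescaled TPM + 1) scale) of the 27 transcripts named by rule (rows) after 2, 10, 20 and 30 days against 12 contralateral muscles and over 12 pairs (columns), with an asterisk where the adjusted p is under 0.05. AABR07068316.1 and LOC680491 carry an asterisk in every column, and AABR07030499.1 is lower in every column.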

How the data were processed

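Muscles of 12 rats gave 24 poly-A enriched, paired-end libraries, all used. Per the labels and the study's methods, the authors aligned reads to Rnor_6.0 (rn6) with STAR and quantified Ensembl release 99 transcripts in Partek. The deposited values were read as TPM because every column adds up to 634431, although they are named as normalised counts. Scaling by length was not tested. The paper gives a minimum number of reads per sample, but the values do not keep the depth of each library. It names a directional library kit, but the strand setting of the counting is not given in the sources used here. The deposited tables of genes and of the authors' own comparisons (log2 ratios, fold changes and p-values) were not used, and no sample column was left out. Values were divided by median-of-ratios factors (0.778 to 1.14, from 16230 transcripts above 0 in all libraries), and log2(value + 1) was tested with limma 3.58.1 in R 4.3.3 on 11677 transcripts with a mean of at least 1, with Benjamini-Hochberg adjustment in each comparison. Tables and plots used Python 3.11.15, pandas 2.3.3, numpy 2.4.6 and matplotlib 3.10.9. The limma step was tested on simulated data.

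Trained groups of 3 were compared with all 12 contralateral muscles. The mean of the 4 differences (12 pairs) and the difference of 30 against 2 days had the animal as a block. Pairing comes from the labels, since both muscles are of the same rat: deviations from the group means correlated with a median r of 0.149 within rats (0.0117 to 0.302, n = 12) and -0.0114 between rats. Among all library pairs none held identical values.

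Transcripts were named by rule: the highest mean of each biotype, the 3 largest rises and falls per time point and the 5 over the pairs among calls with a group mean of at least 5 and separate ranges (or the same sign in 11 of 12 pairs), calls of 30 against 2 days with a mean of at least 5, and members on lists of known noncoding RNAs. The members and lists were chosen with earlier results of these data known. Alternatives were the scaling, pseudocount, filter, threshold, block, time-matched controls, sums per gene, a variance trend and leaving out each library. Sequences and newer labels are from RefSeq (GRCr8), whose gene coordinates were not mixed with those of Rnor_6.0.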

Additional observations from a re-analysis of the deposited data

Results flagged for a closer look

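Flags for a difference in the response between time points fell on 6 transcripts, of which 4 passed the test of 30 against 2 days. AABR07014550.1 and Rtl8a-202 were flagged only because all 3 pairs had opposite signs at different time points. How often such signs arise among all transcripts was not counted, so these signs alone do not show a difference. The difference at 30 days minus that at 2 days, tested with limma within animals, was 1.79 for AABR07024500.1 (adjusted p = 0.0316), 1.42 for AABR07031489.1 (0.0245), 1.07 for AABR07050283.1 (0.0445) and -1.26 for RGD1565989-202 (0.0245), on the log2(rescaled TPM + 1) scale. For RGD1565989-202 all 3 pairs were higher in the trained muscle at 2 days and all 3 lower at 30 days. For AABR07014550.1 all 3 pairs were lower at 2 days and all 3 higher at 20 and at 30 days. Its difference was 1.39 for 30 against 2 days, which did not pass the test (adjusted p = 0.0699) but did as deposited (0.0494), with a mean of at least 10 (0.0188), with no block (0.0228) and with a variance trend (0.0484), and 1.34 for 20 against 2 days, which was not tested. For Rtl8a-202 all 3 pairs were lower at 2 and at 10 days and all 3 higher at 20 days, with differences of 0.54 and 0.55 that were not tested. Groups of 3 and of 12 muscles were not searched for single muscles far from the rest.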

How the results depend on the processing

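The paper gives a minimum number of reads per sample, but the values do not keep the depth of each library. Limits on low transcripts were therefore not given, and 213 of the 414 members had a mean under 5. Main counts of members called after 2, 10, 20 and 30 days, over the pairs and for 30 against 2 days were 83, 58, 37, 42, 99 and 4. At an adjusted p under 0.01 the first 5 were 39, 28, 18, 13 and 51, against 14.7%, 15.2%, 10.6%, 9.66% and 25.1% of all transcripts. With a mean of at least 10 (139 noncoding transcripts tested) they were 45, 26, 19, 19 and 42, and 7 for 30 against 2 days, against 41.9%, 35.6%, 26.4%, 28.7%, 48.6% and 9.98% of all. With time-matched contralateral muscles they were 41, 35, 21 and 16, against 16.3%, 14.4%, 11.7% and 8.02% of all. For 30 against 2 days, 2 were called with a pseudocount of 0.1 (0.916% of all), 2 with no filter (0.544%) and 7 with a variance trend (2.18%). Without 1 library or animal the counts ran from 30 to 88, 34 to 64, 22 to 41, 15 to 45, 71 to 96 and 0 to 9. As deposited, 17 members were higher and 12 lower after 20 days and 45 and 44 over the pairs.

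With the animal as a replicate block the counts after 2, 10, 20 and 30 days were 44, 40, 22 and 19, and with no replicate block 92 were called over the pairs and 8 for 30 against 2 days (35.9% and 1.85% of all). For the named transcripts the block kept 87 results on their side of the threshold, took 20 out and brought 1 in. Under the alternatives run, no named result that was called in either setting turned direction, while some uncalled ones did, such as Rn7sl1 at 30 days (0.45, and -0.27 with the block). Leaving out 1 library took 74 named calls past the threshold and brought in 21, with 2011 on their side, and the other alternatives gave 75, 31 and 1307. Some of these fits also had fewer samples or transcripts, and the cause of the moves was not tested.

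Without mitochondrial RNA, rRNA and transcripts under 200 bases in the total, the median share over 24 libraries was 2.63% for all members in place of 2.20%, 1.13% for processed pseudogenes, 1.04% for pseudogenes, 0.331% for lincRNAs, 0.0915% for processed_transcripts, 0.0115% for unprocessed and 0.00939% for transcribed processed pseudogenes, 0.00738% for misc_RNAs, 0.00351% for antisense RNAs and 0.00210% for the TEC row.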
